A study of Mus musculus with 11 samples.

Results

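The neural crest genes described here are 10 genes that are widely used to recognise neural crest cells: the transcription factor genes Sox10, Sox9, Foxd3, Ets1, Tfap2a, Tfap2b, Snai1 and Snai2, and the receptor genes Ednrb and Erbb3. They were chosen by name and were matched by symbol to the Entrez gene identifiers of the count files, where all 10 of them were found among 27179 genes. Tissue from mouse embryos of embryonic day 9.5, the brain down to just behind the otic vesicle (the primordium of the inner ear), was profiled by sequencing of polyadenylated RNA, with 1 library per embryo. All embryos were C57BL/6 and carried 1 mutant copy of Bim, which encodes a pro-apoptotic protein. The 4 affected females were p53-/- Bim+/-, the 4 control males were also p53-/- Bim+/-, and the 3 control females were p53+/+ Bim+/-. p53 is the tumour suppressor protein, and its loss is known to leave the neural tube open in some mouse embryos, mainly females. What the word affected stands for is not stated in the labels. No group held unaffected p53-/- females, so being affected and the p53 genotype cannot be told apart against control females, and being affected and sex cannot be told apart against control males.

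Neural crest cells arise at the edges of the neural plate, where it meets the surface ectoderm, and leave the closing or closed neural folds by losing their epithelial contacts. In the head they form cartilage and bone of the face, and together with placode cells they form cranial ganglia; further back they give rise to glia, pigment cells and enteric neurons. Border genes come first, then the specifier transcription factors such as Foxd3 and Sox10, then genes of detachment and migration, while the receptors Ednrb and Erbb3 read endothelin and neuregulin signals on migrating cells. The dissected tissue holds dorsal neural tube and adjoining head tissue, so cranial crest cells are expected among many other cells, and their stage was not measured. In such bulk tissue, more or fewer cells of a type and more or less RNA per cell cannot be told apart.

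Totals ranged from 8211942 to 11218682 counts per library. Levels below are CPM, the library's counts scaled to a common total with TMM factors, and means come with the SD (n = 4 affected females, n = 4 control males, n = 3 control females). Each log2 fold change, with its standard error (SE), was taken from edgeR (quasi-likelihood test), p was adjusted by Benjamini-Hochberg across the 14542 genes tested, and a gene is said to be called, or to have risen or fallen, where its adjusted p is under 0.05. All 10 neural crest genes passed the expression filter. The neural progenitor genes Sox2, Otx2 and Pax6 marked the tissue in every library, with 99.3 to 169 CPM, 116 to 147 CPM and 82.9 to 112 CPM. Ccng1, a direct p53 target, had 21.8 to 33.5 CPM in all 8 libraries labelled p53-/- and 74.7 to 93.8 CPM in all 3 labelled p53+/+, and Xist and the Y-linked gene Ddx3y matched the sex labels of all libraries. On the second principal component of all tested genes, which held 14.4% of the variance, control female 1 stood apart from the other libraries. On the first, which held 46.8%, control male 4 was the library nearest to the affected females. Counts are therefore also given without both of these libraries. Control male 4 was picked for its likeness to the affected females, so leaving it out favours larger differences from control males. On the first component control female 1, at 9.11, was also nearer to the affected females (-38.4 to -24.4) than control females 2 and 3 (28.3 and 31.1). Leaving it out likewise favours more calls against control females, 4579 beside 4073 with all libraries. Counts without either library are no independent check.

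Affected females were first compared with control females. Of the 10 neural crest genes, 6 rose in affected females (Sox10, Foxd3, Ets1, Sox9, Tfap2a and Erbb3), 1 fell (Ednrb), and 3 were not called (Tfap2b, Snai1 and Snai2). Among all tested genes 28.0% were called, 13.0% higher and 15.0% lower. For 5 of the 10 (Sox10, Ets1, Sox9, Erbb3 and Ednrb) the ranges of the groups did not overlap, as for 40.2% of all tested genes. The median log2 fold change of the 10 genes was 0.46, beside -0.005 over all tested genes. Without control female 1 and control male 4, where 38.8% of all tested genes were called, the same 7 of 10 genes were called, with log2 fold changes of 0.98 for Sox10, 1.24 for Foxd3, 1.04 for Ets1, 0.48 for Sox9, 0.85 for Tfap2a, 0.67 for Erbb3 and -0.81 for Ednrb. With 1 library left out at a time, 3 genes were called without control female 2 or 3, 4 without affected female 1 or 4, and 5 or 6 without any 1 of the other libraries of these groups. Over all tested genes the count in these fits ran from 1663 (without control female 3) to 4579 (without control female 1), beside 4073 with all libraries.

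Sox10 encodes an SRY-related factor that keeps crest cells multipotent and then directs glial and pigment cell fates. It had 33.5, 24.5, 24.6 and 23.0 CPM in affected females, against 9.97, 15.7 and 11.2 CPM in control females. No affected female was as low as any control female, and affected female 1 was the highest of the group. Its log2 fold change was 1.10 (edgeR adjusted p = 0.00285, SE 0.19). It was called under all 17 alternative settings, with values between 0.95 and 1.31.

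Foxd3, a forkhead factor of premigratory crest that maintains the progenitor pool, had the lowest level per length of the 10 genes in every group. Its level was 3.49, 2.16, 1.03 and 2.81 CPM in affected females, which are counts of 35, 21, 11 and 29, against 0.872, 1.27 and 0.742 CPM, or counts of 7, 12 and 8, in control females. The groups overlapped, because affected female 3 lay below control female 2. Foxd3 had the largest log2 fold change of the 10, at 1.29, and the largest error (edgeR adjusted p = 0.0397, SE 0.44). It was called under 9 of 17 alternative settings: the call was lost without affected female 1, 2 or 4 or without any of the control females, and the adjusted p reached 0.146 without control female 3 (edgeR).

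Ets1 encodes an ETS-family factor that in chick promotes delamination of cranial crest cells, and it is also active in endothelial and blood cells. Its level was 163, 133, 157 and 156 CPM in affected females, against 89.2, 77.0 and 71.6 CPM in control females. The groups were far apart, with the lowest affected female above the highest control female. The log2 fold change was 0.94 (edgeR adjusted p = 0.000582, SE 0.12), the smallest adjusted p of the 10 genes, and it was called under all 17 alternative settings. Sox9, the SRY-related factor of early crest and of cartilage, which neural progenitors and the otic vesicle also express, had 40.6, 42.3, 39.4 and 41.5 CPM in affected females, against 34.5, 30.3 and 28.5 CPM in control females. The affected females were tightly grouped above the control females. The rise was small, 0.40 on the log2 scale (edgeR adjusted p = 0.0319, SE 0.13), and it was called under 10 of 17 settings. It was not called without any of the affected females in turn or without control female 2 or 3, where the adjusted p reached 0.129 (edgeR, without control female 3).

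Of the AP-2 factor genes, Tfap2a was called and Tfap2b was not. Tfap2a, which acts at the neural plate border, in crest cells and in surface ectoderm, had 30.6, 22.8, 21.9 and 25.7 CPM in affected females, against 23.2, 15.6 and 12.5 CPM in control females. Control female 1 lay among the affected females and the other control females lay below them. The Tfap2a log2 fold change was 0.58 (edgeR adjusted p = 0.0264, SE 0.18) with all libraries and 0.85 (edgeR adjusted p = 0.0027) without control female 1, while the call was lost without affected female 1 or 4 or control female 2 or 3 (adjusted p = 0.137 without control female 3, edgeR). Tfap2b, its relative in crest and dorsal neural tube, had 64.9, 53.01, 67.7 and 74.5 CPM in affected females, against 47.5, 61.6 and 62.8 CPM in control females. These groups overlapped, with a log2 fold change of 0.18 (edgeR adjusted p = 0.267, SE 0.12), and the gene was called under none of 17 alternative settings. Whether the fold changes of the pair differ from each other was not tested.

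Snai1 and Snai2 encode zinc finger repressors that turn down the epithelial cadherin gene Cdh1 during detachment. Snai1 had 8.57, 5.65, 4.47 and 5.72 CPM in affected females, against 4.24, 4.88 and 4.73 CPM in control females. Affected female 1 was high and the other libraries lay close together. For Snai1 the log2 fold change was 0.40 (edgeR adjusted p = 0.159, SE 0.21). Snai2 had 12.3, 11.1, 7.27 and 8.52 CPM in affected females, against 9.35, 7.74 and 8.25 CPM in control females, with full overlap (a log2 difference of 0.21; edgeR adjusted p = 0.445, SE 0.21). Neither gene was called under any of 17 alternative settings.

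The receptors moved in opposite directions. Erbb3, the neuregulin receptor of crest cells and their glial descendants, which signals together with Erbb2, had 39.2, 30.8, 31.3 and 33.4 CPM in affected females, against 28.5, 20.2 and 22.1 CPM in control females. The groups did not overlap, though control female 1 came close to the lowest affected female. The log2 fold change was 0.52 (edgeR adjusted p = 0.0136, SE 0.13), and the call was lost without control female 2 (edgeR adjusted p = 0.0721) or control female 3 (edgeR adjusted p = 0.0641). Ednrb, the endothelin receptor that binds endothelin-3 and is needed for pigment cells and enteric neurons, had 42.3, 40.8, 27.7 and 45.8 CPM in affected females, against 50.6, 70.9 and 66.7 CPM in control females. All affected females lay below all control females, and affected female 3 was the lowest. Its log2 fold change was -0.68 (edgeR adjusted p = 0.00709, SE 0.15), and it was called under all 17 alternative settings, with values between -0.88 and -0.56.

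**Figure D1:**
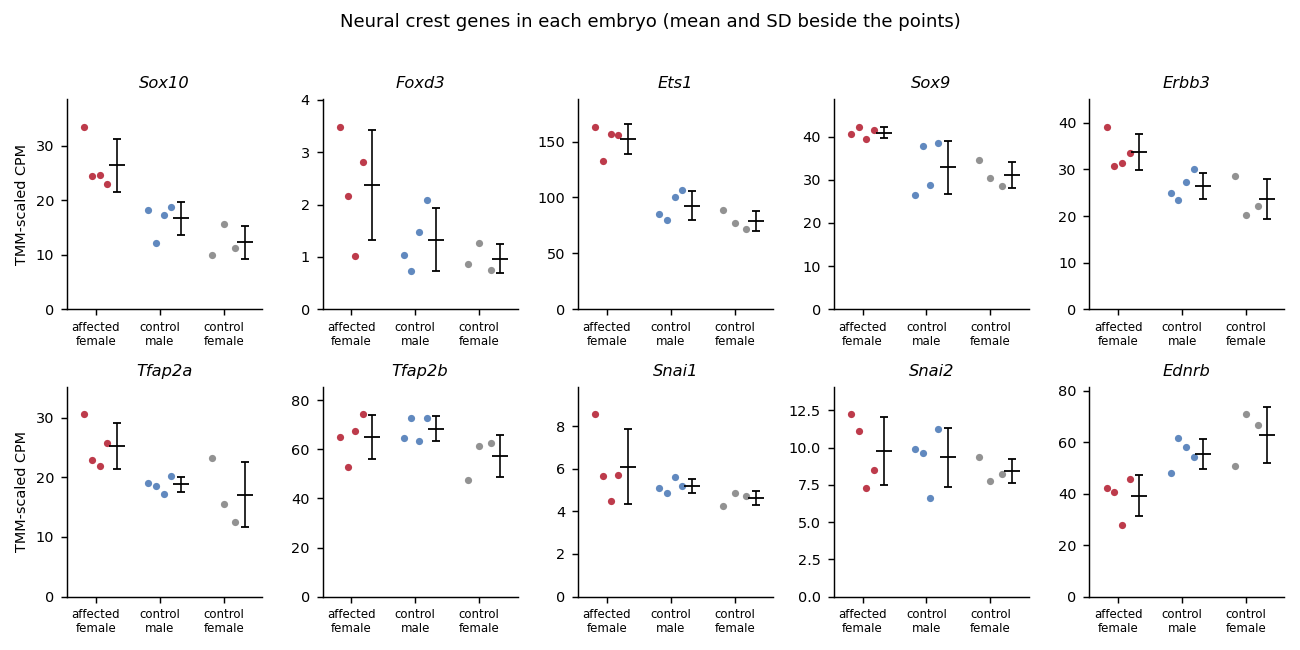
TMM-scaled CPM of the 10 neural crest genes, 1 point per embryo, for affected females, control males and control females, with the group mean and SD to the right of the points; each panel has its own axis from 0. Sox10 and Ets1 lie higher, and Ednrb lower, in every affected female than in every other embryo, while Tfap2b, Snai1 and Snai2 overlap between affected females and either control group.

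Affected females were next set against control males, which share the p53-/- Bim+/- genotype. Of the 10 genes, 2 rose in affected females (Sox10 and Ets1) and 1 fell (Ednrb), where 20.2% of all tested genes were called, 9.51% higher and 10.7% lower. The median log2 fold change of the 10 genes was 0.33, beside -0.02 over all tested genes. Single libraries moved the count of called genes, to 1 when affected female 3 or control male 2 was left out and to 7 when control male 4 was, and also 7 without control female 1 and control male 4, where 40.9% of all tested genes were called. The count over all tested genes moved as well, from 2940 to 361 without affected female 3 and to 5140 without control male 4. The comparison shares its affected females with the one before, so the results are not independent.

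Sox10 had 18.2, 12.2, 17.4 and 18.8 CPM in control males, below all affected females, and its log2 fold change was 0.66 (edgeR adjusted p = 0.018, SE 0.17). The call was lost without affected female 3 (edgeR adjusted p = 0.0538) and without control male 2 (edgeR adjusted p = 0.0501). Ets1 had 85.1, 79.5, 100.01 and 107 CPM in control males, again below every affected female. Its log2 fold change was 0.71 (edgeR adjusted p = 0.00425, SE 0.10), and Ets1 was called under all 18 alternative settings. Ednrb had 48.1, 61.5, 58.1 and 54.3 CPM in control males, all above the affected females, with a log2 fold change of -0.50 (edgeR adjusted p = 0.0258, SE 0.14). This call was lost without affected female 3 (edgeR adjusted p = 0.0817), control male 2 (edgeR adjusted p = 0.0727) or control male 3 (edgeR adjusted p = 0.0627).

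Sox9, Tfap2a and Erbb3 also had ranges that did not overlap, which held for 19.5% of all tested genes, but they narrowly missed the threshold. Sox9 had 26.4, 37.7, 28.9 and 38.5 CPM in control males (a log2 difference of 0.32; edgeR adjusted p = 0.0652, SE 0.12). Tfap2a had 19.1, 18.6, 17.3 and 20.2 CPM in control males (a log2 difference of 0.43; edgeR adjusted p = 0.0668, SE 0.16). Erbb3 had 25.0, 23.5, 27.2 and 30.1 CPM in control males (a log2 difference of 0.35; edgeR adjusted p = 0.0544, SE 0.12). In each case the lowest affected female lay just above the highest control male. Without control male 4 the adjusted p was 0.015 for Sox9, 0.049 for Tfap2a and 0.0193 for Erbb3 (edgeR). None was called in the other 7 fits with 1 library of these groups left out. There the adjusted p reached 0.201 for Sox9, 0.183 for Tfap2a and 0.151 for Erbb3 (edgeR). Over all 18 alternative settings Sox9 was called under 4, and Tfap2a and Erbb3 under 6 each. Foxd3 had 1.03, 0.724, 1.48 and 2.09 CPM in control males, overlapping the affected females, with a log2 fold change of 0.81 (edgeR adjusted p = 0.126, SE 0.37). Tfap2b had 64.7, 73.0, 63.4 and 72.7 CPM in control males, within the range of the affected females (a log2 difference of -0.07; edgeR adjusted p = 0.654, SE 0.11). Snai1 had 5.08, 4.86, 5.62 and 5.18 CPM and Snai2 had 9.87, 9.61, 6.61 and 11.3 CPM in control males, at 0.23 ± 0.19 and 0.06 ± 0.19 on the log2 scale (difference ± SE).

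Control males and control females differ in sex and in p53 genotype, and no embryo of either group was labelled as affected. None of the 10 genes was called between them by edgeR, where 0.144% of all tested genes were called. At an unadjusted p under 0.05 there was 1 of the 10, Sox10, beside 891 of all genes. DESeq2 called 0 of the 10, and limma voom with sample weights called 2, Ets1 and Erbb3, at settings where these tools called 0.296% and 10.8% of all tested genes. The fold changes were small, with a median of 0.17 on the log2 scale for the 10 genes beside -0.001 for all genes. The largest were those of Foxd3, 0.48 (SE 0.47), and Sox10, 0.44 (edgeR adjusted p = 0.773, SE 0.19), and Ednrb stood at -0.18 (SE 0.15). Sox10 overlapped between them, since control male 2 lay below control female 2. Tfap2b alone had ranges that did not touch, with 63.4 to 73.0 CPM in control males and 47.5 to 62.8 CPM in control females (a log2 difference of 0.25; edgeR adjusted p = 0.804, SE 0.12), and 5.54% of all genes had such ranges.

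**Figure D2:**
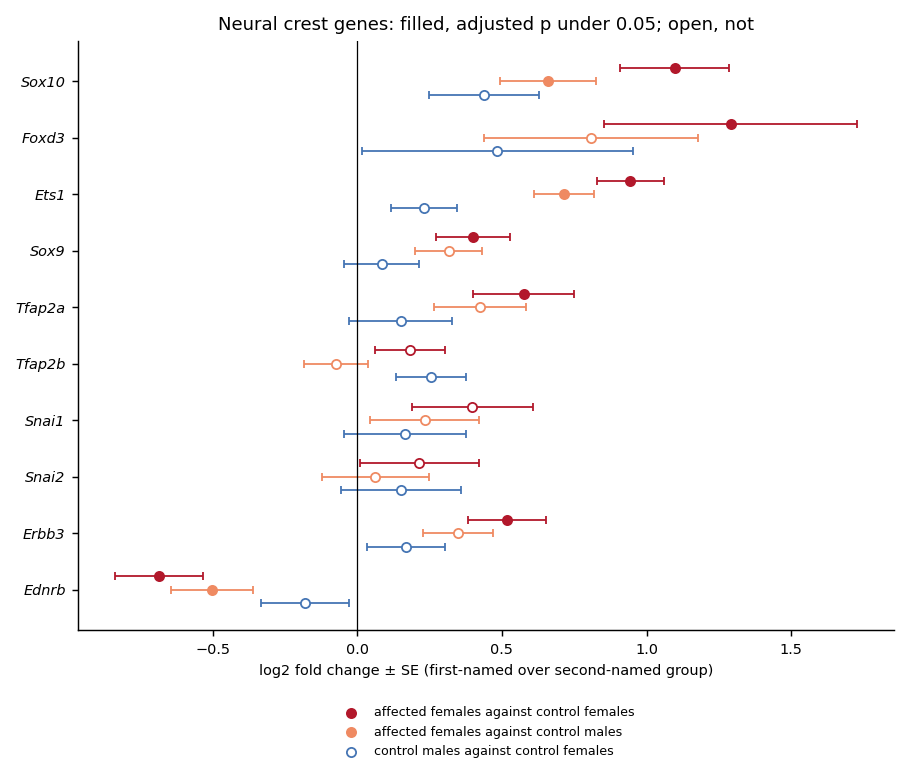
Log2 fold changes with SE for the 10 neural crest genes in the 3 comparisons, filled where the adjusted p is under 0.05 and open where it is not. In affected females, Sox10 and Ets1 lie to the right of 0 and Ednrb to the left with filled points against both control groups, while no point between the control groups is filled.

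Levels per length, as CPM per kilobase of counted exon sequence, allowed the genes to be ordered within a group. In affected females Ets1 was highest, at 30.1 ± 2.65 CPM per kb. Tfap2b (10.2 ± 1.40), Sox9 (9.88 ± 0.299), Sox10 (9.72 ± 1.77), Ednrb (9.70 ± 1.96), Erbb3 (8.38 ± 0.954) and Tfap2a (7.73 ± 1.20) followed, each within the SD of its neighbour in that order. Snai2 (4.86 ± 1.14), Snai1 (3.84 ± 1.10) and Foxd3 (0.999 ± 0.442) were lowest. In control males the leading levels were 18.3 ± 2.49 CPM per kb for Ets1, 13.7 ± 1.43 for Ednrb and 10.7 ± 0.798 for Tfap2b. In control females Ets1 (15.7 ± 1.79) and Ednrb (15.5 ± 2.66) were highest and within their SD of each other, and Sox10, at 4.53 ± 1.11, lay close to Snai2, at 4.19 ± 0.408. Ednrb was thus second in both control groups and lower in the order in affected females, among genes where the means of neighbours in the order differed by less than the larger of their SDs.

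Promoter sequences were read for the called genes that had an entry in the RefSeq-based table of gene starts (build GRCm38.p6), which held 5 of the 10 neural crest genes and 3 of the 7 called against control females. These 3 sequences show the stretch just upstream of the starts of 2 genes that rose, Foxd3 and Tfap2a, and of the 1 gene that fell, Ednrb. Each is the 250 bases before the start on the gene's strand, 5′ to 3′, and capitals mark motif matches. The Foxd3 window is chr4:99656049-99656298 on the plus strand, the Tfap2a window chr13:40734921-40735170 on the minus strand and the Ednrb window chr14:103843702-103843951 on the minus strand. The Ednrb and Tfap2a starts lie inside the annotated gene spans, and the Tfap2a window overlaps an exon of the antisense gene Gm26688. The table has another Tfap2a start, whose window (chr13:40733796-40734045, minus strand) overlaps an exon of Tfap2a itself and is not printed.
Foxd3: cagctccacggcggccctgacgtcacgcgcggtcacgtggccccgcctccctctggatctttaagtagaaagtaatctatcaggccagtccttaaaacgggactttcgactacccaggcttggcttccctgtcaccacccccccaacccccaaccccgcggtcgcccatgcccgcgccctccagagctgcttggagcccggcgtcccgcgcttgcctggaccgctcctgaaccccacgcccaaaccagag
Tfap2a: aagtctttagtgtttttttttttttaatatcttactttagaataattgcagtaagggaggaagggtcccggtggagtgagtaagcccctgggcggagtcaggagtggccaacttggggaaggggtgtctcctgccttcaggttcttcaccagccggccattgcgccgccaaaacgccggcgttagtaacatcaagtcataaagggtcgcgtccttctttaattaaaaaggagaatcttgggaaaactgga
Ednrb: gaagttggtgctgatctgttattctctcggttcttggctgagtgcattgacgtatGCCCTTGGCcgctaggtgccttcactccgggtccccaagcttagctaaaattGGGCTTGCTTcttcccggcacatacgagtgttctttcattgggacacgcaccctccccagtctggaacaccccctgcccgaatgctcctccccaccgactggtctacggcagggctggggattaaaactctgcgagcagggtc
The motifs searched on both strands were the AP-2 site GCCNNNGGC, the Snail E-box CAGGTG, the SOX sites ACAAAG and ACAATG, the ETS site CCGGAA and the p53 half-site. The Foxd3 window and both Tfap2a windows held none of these letters. The Ednrb window held 1 AP-2 match, whose first base lies 195 bases before the start, and 1 p53 half-site match, which begins 143 bases before it. Among 32851 windows of the same length, 13.7% held an AP-2 match and 7.13% a p53 half-site match, so such matches are common, and they are given as a description of the letters only. The 3 windows had a GC content of 65.6% for Foxd3, 47.6% for Tfap2a and 56.8% for Ednrb.

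The close relatives of the crest transcription factors were measured next. Of 11 paralogs, 7 passed the expression filter; in affected females 1 rose against control females and 2 rose against control males, with no fall. That is 14.3% and 28.6% of the paralogs tested, beside 28.0% and 20.2% of all tested genes. Ets2, the nearest relative of Ets1, had 38.3, 42.5, 45.6 and 42.6 CPM in affected females, against 27.7, 26.1, 29.2 and 33.8 CPM in control males and 36.1, 28.5 and 28.2 CPM in control females. Its rise was 0.53 on the log2 scale against control males (edgeR adjusted p = 0.0101, SE 0.11) and 0.45 against control females (edgeR adjusted p = 0.0129, SE 0.12), which was not called without affected female 3, control female 2 or control female 3. Sox5, a SoxD gene active in crest cells, rose against control males by 0.47 (edgeR adjusted p = 0.0217, SE 0.13) and stood at 0.33 (edgeR adjusted p = 0.0794, SE 0.14) against control females. The Sox5 call was lost without affected female 1, 3 or 4 or control male 1 or 3. Against control females the count was 5 without control female 1, and 4 of the 5 rose. Against control males it was 4 without control male 4, and 1 without affected female 1, 3 or 4 or control male 1 or 3. For this list and those below, such counts move along with the calls over all tested genes. With 1 library left out, these ran from 1663 to 4579 against control females and from 361 to 5140 against control males.

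The ligands, processing enzymes and partner receptors of Ednrb and Erbb3 were examined next. Of 15 ligand, enzyme and partner receptor genes, 12 passed the filter; against control females 2 rose and 1 fell in affected females (25.0%, beside 28.0% of all tested genes), and against control males 1 rose (8.33%, beside 20.2%). Edn1, which encodes endothelin-1 and is known from pharyngeal arch ectoderm and mesoderm, had 8.47, 10.8, 12.6 and 5.42 CPM in affected females, against 4.61, 2.79, 3.65 and 5.45 CPM in control males and 3.36, 3.50 and 3.06 CPM in control females. It rose by 1.49 against control females (edgeR adjusted p = 0.00386, SE 0.28) and by 1.17 against control males (edgeR adjusted p = 0.0107, SE 0.25), and affected female 4 lay within the range of the control males. The call against control males was lost without affected female 3. Ednra, the receptor through which endothelin-1 acts on arch crest, had 59.4, 61.6, 45.1 and 57.0 CPM in affected females, against 32.8, 47.9 and 40.0 CPM in control females. It rose by 0.47 (edgeR adjusted p = 0.0231, SE 0.14), a call that was lost without affected female 1, 2 or 4 or control female 1 or 3. Against control males, at 41.6, 41.5, 51.7 and 50.7 CPM, Ednra stood at 0.27 (edgeR adjusted p = 0.135, SE 0.13).

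Edn3, whose product is the ligand of Ednrb in pigment and enteric crest cells, was not called, with 10.2, 8.01, 8.85 and 9.98 CPM in affected females, 8.09 to 10.4 CPM in control males and 6.23, 9.96 and 9.46 CPM in control females (a log2 difference of 0.10 against control females; edgeR adjusted p = 0.669, SE 0.17). The endothelin-converting enzyme gene Ece1 stood at 0.13 (SE 0.11) and Edn2 had no counts in any library, which allows up to 0.374 CPM (3 counts) in the shallowest. On the neuregulin side, neither the ligand gene Nrg1 (0.39; edgeR adjusted p = 0.357, SE 0.31) nor Erbb2, the kinase partner of Erbb3 (0.16; edgeR adjusted p = 0.273, SE 0.11), was called against control females. Erbb4, a further neuregulin receptor, which neural progenitors and neurons express, was low and fell in affected females against control females by 0.86 on the log2 scale (edgeR adjusted p = 0.0244, SE 0.26), with 1.77 to 2.77 CPM against 2.97 to 4.56 CPM. The Erbb4 call was lost without affected female 3 or 4 or control female 1 or 2. The whole list had 1 call without affected female 4 against control females, and against control males none without affected female 3 and 2 without control male 4.

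**Figure D3:**
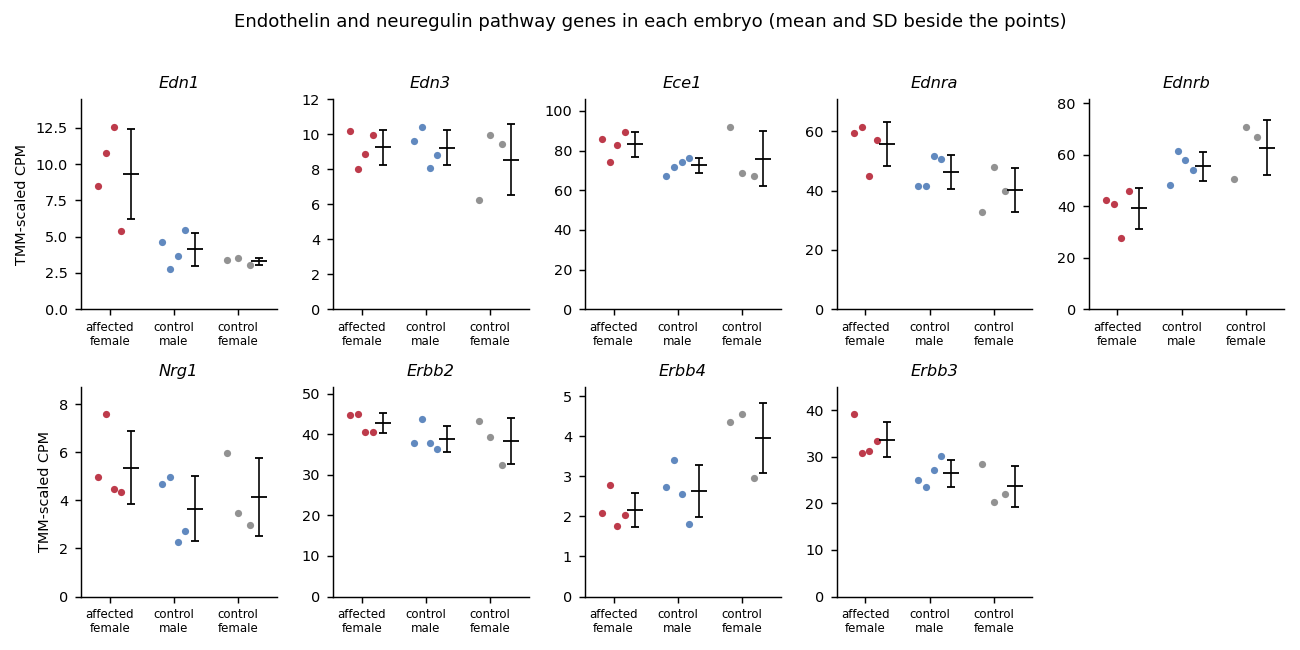
TMM-scaled CPM of endothelin and neuregulin ligands, the converting enzyme gene Ece1 and the receptors, 1 point per embryo, for affected females, control males and control females, with the group mean and SD beside the points. Edn1, Ednra and Erbb3 lie higher on average, and Ednrb and Erbb4 lower, in affected females than in control females, while Edn3, Ece1, Nrg1 and Erbb2 overlap between these groups.

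Genes of the lineages that crest cells form, chosen for glia, pigment cells, sensory and autonomic neurons, were counted in the same way. Of 24, 19 passed the filter; in affected females 4 rose and 5 fell against control females, and 2 rose and 7 fell against control males. Each is 47.4% of those tested, beside 28.0% and 20.2% of all tested genes. Ret, the receptor of enteric and autonomic crest cells, had 13.1, 13.4, 12.4 and 8.91 CPM in affected females, against 5.36, 4.65, 6.21 and 5.54 CPM in control males and 6.48, 3.18 and 4.17 CPM in control females. All affected females lay above all other embryos. Its log2 fold change was 1.39 (edgeR adjusted p = 0.00248, SE 0.22) against control females and 1.13 (edgeR adjusted p = 0.00709, SE 0.20) against control males, and it was called under every alternative setting in both comparisons.

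Of the 4 that rose against control females, only Ret is named here. The 5 that fell against control females were the neuronal transcription factor genes Isl1, Pou4f1 and Neurod1, the growth factor gene Kitl and the co-receptor gene Gfra1. Isl1, a transcription factor of sensory and motor neurons, had 9.27, 7.29, 5.69 and 8.14 CPM in affected females, against 21.2, 25.3, 15.1 and 12.9 CPM in control males and 13.3, 23.6 and 17.7 CPM in control females. It fell by 1.27 on the log2 scale against control females (edgeR adjusted p = 0.004, SE 0.24) and by 1.29 against control males (edgeR adjusted p = 0.00755, SE 0.23). Isl1 is also a marker of newborn neurons of the neural tube, so it does not tell crest-derived from central neurons. Both Isl1 and Pou4f1 are counted again in the early neuron list below. Kitl, which encodes the ligand of the pigment cell receptor Kit, had 44.1, 41.0, 34.3 and 48.3 CPM in affected females, against 61.3, 65.5, 59.6 and 67.0 CPM in control males and 48.9, 69.8 and 62.2 CPM in control females. It fell by 0.53 (edgeR adjusted p = 0.00922, SE 0.12) and by 0.60 (edgeR adjusted p = 0.00956, SE 0.12) on the log2 scale against control females and control males, and the first of these calls was lost without control female 2. The pigment enzyme gene Tyr and the forkhead gene Foxs1 had no counts in any library. Summed over the list, the level was 898 to 1016 CPM in affected females, 739 to 978 CPM in control males and 743 to 791 CPM in control females. The list's counts moved with single libraries: against control females 2 rose and 1 fell without control female 2, and 1 rose and 3 fell without control female 3. Against control males 1 rose and 2 fell without affected female 3, and 1 rose and 4 fell without affected female 4 or control male 1.

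**Figure D4:**
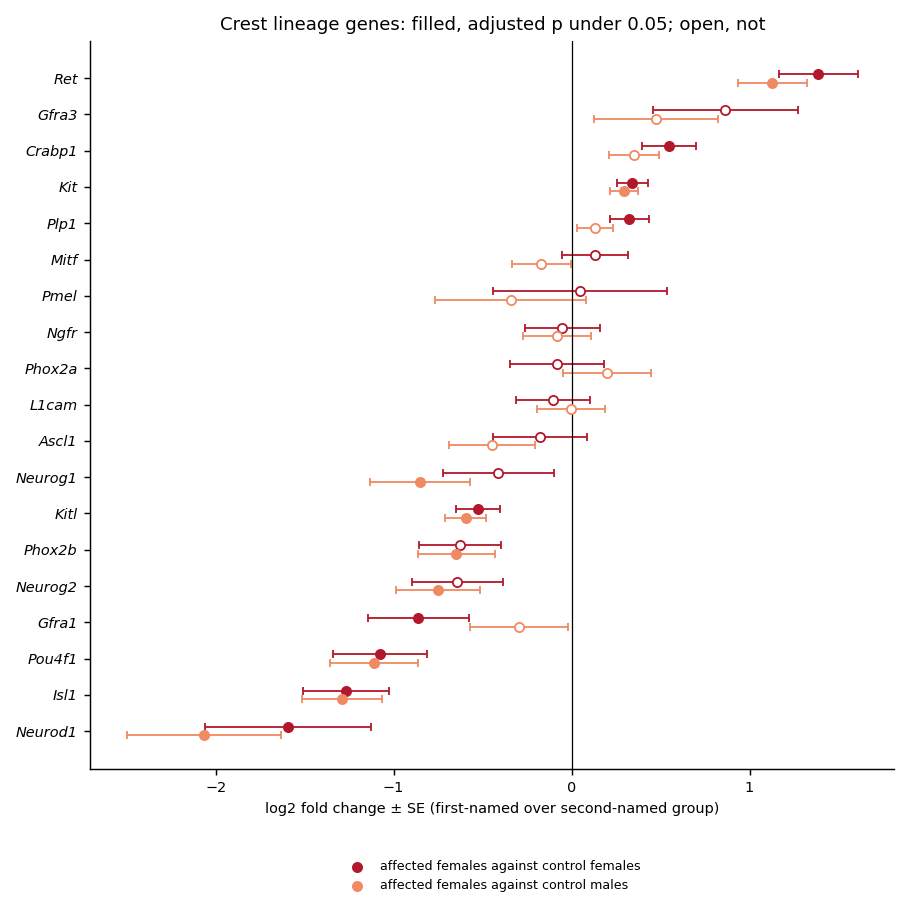
Log2 fold changes with SE for the 19 crest lineage genes that passed the expression filter, in affected females against control females and against control males, filled where the adjusted p is under 0.05 and open where it is not, ordered by the first comparison. Ret is at the top with 1.39 and 1.13, and Isl1, Pou4f1 and Neurod1 lie at the bottom with filled points to the left of 0 in both comparisons.

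Border genes act before the crest specifiers. Of 20, 19 passed the filter; 5 rose and 1 fell in affected females against control females (31.6%, beside 28.0% of all tested genes), and 1 rose against control males (5.26%, beside 20.2%). The homeobox gene Dlx5, of the anterior neural ridge, otic epithelium and arches, rose by 1.29 (edgeR adjusted p = 0.00462, SE 0.26) against control females and 0.78 (edgeR adjusted p = 0.027, SE 0.22) against control males, where the call was lost without affected female 1 or 3 or control male 1, 2 or 3. The growth regulators Mycn and Myc, which progenitors of many kinds express, rose against control females by 0.75 (edgeR adjusted p = 0.00424, SE 0.15) and 0.70 (edgeR adjusted p = 0.00454, SE 0.14). Mycn had 129, 120.2, 113 and 109.8 CPM in affected females, against 48.4, 84.2 and 77.3 CPM in control females, with control female 1 the lowest. Against control females 3 rose and none fell without control female 2. Against control males 3 rose and 3 fell without control male 4, 1 rose and 1 fell without affected female 4, and none was called without affected female 3 or control male 1, 2 or 3.

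Genes of detachment, adhesion and migration had calls at a share near that of all genes against control females. All 27 passed the filter; in affected females 4 rose and 4 fell against control females, where 13.0% of all tested genes rose and 15.0% fell, and 6 rose and 2 fell against control males, where 9.51% rose and 10.7% fell. The called share of the list was 29.6% in both comparisons. Nrp2, a semaphorin receptor that guides crest streams, had 148, 129, 136 and 128 CPM in affected females, against 77.5, 88.6, 91.1 and 104 CPM in control males and 115, 78.8 and 71.1 CPM in control females. Every affected female lay above every other embryo, and the log2 fold change was 0.62 (edgeR adjusted p = 0.00763, SE 0.14) against control females and 0.58 (edgeR adjusted p = 0.0118, SE 0.13) against control males. Sema3f, which encodes a repellent ligand of that receptor, fell by 0.79 (edgeR adjusted p = 0.00424, SE 0.15) and by 0.72 (edgeR adjusted p = 0.0101, SE 0.14) on the log2 scale against control females and control males. The Slit receptor gene Robo1 rose by 0.37 (edgeR adjusted p = 0.011, SE 0.09) against control females and by 0.39 (edgeR adjusted p = 0.0116, SE 0.08) against control males. Without affected female 3, Nrp2 and Robo1 were not called against control males, and Robo1 was not called against control females without control female 2 or 3. The count against control females was 14 without control female 1, 5 without affected female 1, 3 without affected female 3 or control female 3, and 2 without control female 2. Against control males it was 1 without affected female 3, 3 without control male 1, and 4 without affected female 1, affected female 4, control male 2 or control male 3.

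Genes of the mesenchyme that cranial crest forms in the face were also counted. Of 22, 16 passed the filter; 3 rose and 1 fell against control females (25.0%, beside 28.0% of all tested genes), and 1 rose and 1 fell against control males (12.5%, beside 20.2%). Dlx3, a homeobox gene of arches and ectoderm, rose by 0.96 (edgeR adjusted p = 0.0179, SE 0.27) against control females, and the cartilage collagen gene Col2a1 fell by 0.53 (edgeR adjusted p = 0.0145, SE 0.14) on the log2 scale. Against control males Dlx3 rose by 0.75 (edgeR adjusted p = 0.0369, SE 0.24) and Col2a1 fell by 0.43 (edgeR adjusted p = 0.0336, SE 0.13), and both calls were lost when any library of these groups other than control male 4 was left out. Against control females the Dlx3 call was lost without control female 2 or 3. The list's summed level was 567 to 665 CPM in affected females, 621 to 779 CPM in control males and 607 to 684 CPM in control females. Against control females 1 rose and 1 fell without affected female 1 or control female 2, and only the fall was called without control female 3. Against control males 3 rose and 1 fell without control male 4.

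Other cell types that the dissection could hold were followed with fixed marker lists, because several of the 10 genes are expressed outside the crest. Surface ectoderm genes rose in affected females for 13 of 17 tested against control females and for 11 of 17 against control males, with no fall, where 13.0% and 9.51% of all tested genes rose. Their median log2 fold changes were 0.72 and 0.60. The list's summed level was 488, 428, 487 and 452 CPM in affected females, 301, 239, 302 and 353 CPM in control males and 396, 250 and 226 CPM in control females. Control female 1 was thus nearer to the affected females than to the other control females, as it was for Tfap2a, Erbb3 and Ednrb. For Sox10, however, it was the lowest control female. The tight junction gene Cldn4 and the ectoderm transcription factor genes Grhl2 and Grhl3 rose against control females by 0.85 (edgeR adjusted p = 0.00329, SE 0.15), 0.82 (edgeR adjusted p = 0.00357, SE 0.15) and 1.37 (edgeR adjusted p = 0.00477, SE 0.28). None of the 19 markers was at 0 in all libraries. The part of surface ectoderm in the rise of Tfap2a, Erbb3 or the other crest genes was not tested. Against control females the count of rises was 7 without affected female 3 and 5 without control female 2 or 3. Against control males it was 7 without affected female 1 or 4, 1 without affected female 3, 4 without control male 1 and 6 without control male 2. Few genes of any kind were called in some of these fits. Without affected female 3, 361 of 14497 tested genes were called against control males, 178 of them higher. Without affected female 4 it was 1174 of 14501, 541 of them higher.

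Endothelial genes were followed because endothelium also expresses Ets1. Of 16 tested, none rose and 2 fell against control females (Tie1 by 0.48 and Erg by 0.51 on the log2 scale; adjusted p = 0.0182 and 0.0301, edgeR; neither was called without affected female 3 or control female 2 or 3), and none was called against control males by edgeR, with 4 at an unadjusted p under 0.05, 0 called by DESeq2 (22.9% of all tested genes) and 5 by limma voom (44.0% of all tested genes). Their summed level was 338 to 429 CPM in affected females, 333 to 405 CPM in control males and 373 to 397 CPM in control females. The part of endothelium in the rise of Ets1 was not tested. In this list 3 fell and 1 rose against control females without control female 1, 1 fell without affected female 1 or 4, and none was called without affected female 3 or control female 2 or 3. Against control males 1 fell without affected female 1 or control male 4. Head mesoderm genes rose for 2 of 13 in both comparisons (15.4%, where 13.0% and 9.51% of all tested genes rose), namely Meox1, at 2.05 ± 0.47 and 1.39 ± 0.40 (log2 fold change ± SE) against control females and control males, and Pax1, at 2.01 ± 0.53 and 1.58 ± 0.44. Meox1 was not called against control males without affected female 1 or 3 or control male 2, and Pax1 was lost without control female 2 or 3 and without control male 1 or 2. Without affected female 1, 2 or 3, and in a fit of affected females and control males alone, Pax1 did not pass the expression filter and was not tested. The whole list summed to 340 to 465 CPM in affected females, 401 to 578 CPM in control males and 442 to 504 CPM in control females. Against control females 1 rose without affected female 1, 2 or 3 or control female 2 or 3, 4 rose without control female 1, and 3 rose and 1 fell without affected female 4. Against control males none was called without affected female 1 or 3 or control male 2, 1 rose without affected female 2 or control male 1, and 3 rose and 1 fell without control male 4. Erythroid genes had no call of 10 by edgeR in either comparison, with a summed level of 1122 to 2320 CPM in affected females, 2140 to 3708 CPM in control males and 562, 4398 and 4189 CPM in control females. At an unadjusted p under 0.05 there was 1 against control females and 0 against control males; DESeq2 called 0 in both (29.3% and 22.9% of all tested genes), and limma voom called 5 and 1 (52.5% and 44.0%). Without control female 1, the library with 562 CPM, 5 of them fell against control females.

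Otic vesicle and placode genes, of interest because Sox9 and Sox10 are expressed in the otic vesicle, rose for 4 and fell for 2 of 12 against control females and rose for 3 and fell for 4 against control males (6 and 7 of 12 called, beside 28.0% and 20.2% of all tested genes). Against control males the smallest adjusted p of the list was that of Otx1, which fell, with a log2 fold change of -0.39 (edgeR adjusted p = 0.013). The Otx1 call was lost without affected female 3. Pax8, an early otic factor, rose by 0.72 (edgeR adjusted p = 0.019, SE 0.19) against control males, a call that was lost without affected female 3 or control male 1 or 2. Fgf3, an inducer of the ear that the hindbrain secretes, rose against control females by 1.46 (edgeR adjusted p = 0.011, SE 0.36), but not without control female 2. The list summed to 243 to 250 CPM in affected females, 229 to 250.2 CPM in control males and 220.0 to 226 CPM in control females, and the part of otic tissue in the rise of Sox10 and Sox9 was not tested. Against control females 2 rose and none fell without affected female 3, 1 rose without control female 2 and 3 rose without control female 3. Against control males 4 were called without affected female 1 or 2, 3 without affected female 4, 2 without control male 1 or 2, and none without affected female 3.

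Neural progenitor genes, of interest because neural progenitors also express Sox9, rose for 4 and fell for 3 of 15 against control females and rose for 1 and fell for 2 against control males (7 and 3 of 15 called, beside 28.0% and 20.2% of all tested genes). Lin28a, an RNA-binding protein gene of early progenitors, rose by 0.95 (edgeR adjusted p = 0.0107, SE 0.23) and 0.75 (edgeR adjusted p = 0.0247, SE 0.21) against control females and control males, while the radial glia gene Fabp7 fell by 1.68 (edgeR adjusted p = 0.00253, SE 0.28) and 1.32 (edgeR adjusted p = 0.00999, SE 0.26) on the log2 scale. The Lin28a calls were lost without control female 2 or 3 in the first comparison and without affected female 3 or 4 or control male 1 or 2 in the second. Early neuron genes fell for 13 of 16 against control females and for 11 of 16 against control males, and none rose, where 15.0% and 10.7% of all tested genes fell. Their summed level was 231, 208, 204 and 250 CPM in affected females, 309, 505, 311 and 322 CPM in control males and 252, 434 and 513 CPM in control females. Control female 1 stood beside the affected females for this list too. Nhlh1, a factor of newborn neurons, fell by 2.16 (edgeR adjusted p = 0.00248, SE 0.35) and by 2.12 (edgeR adjusted p = 0.00475, SE 0.33) on the log2 scale. Early neuron falls numbered 8 without control female 3 against control females; against control males they numbered 7 without affected female 2, 3 without affected female 3 and 5 without control male 2. Against control females, progenitor calls numbered 4 without control female 3, 3 without affected female 3 and 2 without control female 2, and against control males 1 without affected female 3, control male 1 or control male 2 and 5 without control male 4.

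Without control female 1 and control male 4, more genes were called in most lists, as among all tested genes (38.8% against control females and 40.9% against control males). Against control females, 14 of 17 surface ectoderm genes rose and 13 of 16 early neuron genes fell, with none the other way. Of the crest lists, 4 paralogs rose and 1 fell, 5 border genes rose and 2 fell, 9 migration genes rose and 6 fell, 4 lineage genes rose and 9 fell, 3 mesenchyme genes rose and 3 fell, and 3 ligand and receptor genes rose and 2 fell. For the other cell types, 4 otic genes rose and 2 fell, 1 endothelial gene rose and 5 fell, 4 head mesoderm genes rose, 5 progenitor genes rose and 4 fell, and 6 erythroid genes fell.

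Against control males without these libraries, 13 surface ectoderm genes rose and 13 early neuron genes fell, again with none the other way. In the crest lists 5 paralogs rose and 1 fell, 4 border genes rose and 4 fell, 8 migration genes rose and 4 fell, 3 lineage genes rose and 7 fell, 4 mesenchyme genes rose and 3 fell, and 3 ligand and receptor genes rose and 1 fell. Among other cell types 6 otic genes rose and 4 fell, 1 endothelial gene rose and 1 fell, 4 head mesoderm genes rose and 1 fell, 4 progenitor genes rose and 4 fell, and 2 erythroid genes fell.

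Between control males and control females edgeR called no gene of any of these 13 lists, whose tested members number 199 when a gene in several lists is counted in each; 9 of them had an unadjusted p under 0.05. DESeq2 called 0 of the 199, and limma voom with sample weights called 31, among them 9 early neuron and 5 surface ectoderm genes, where voom called 10.8% of all tested genes.

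**Figure D5:**
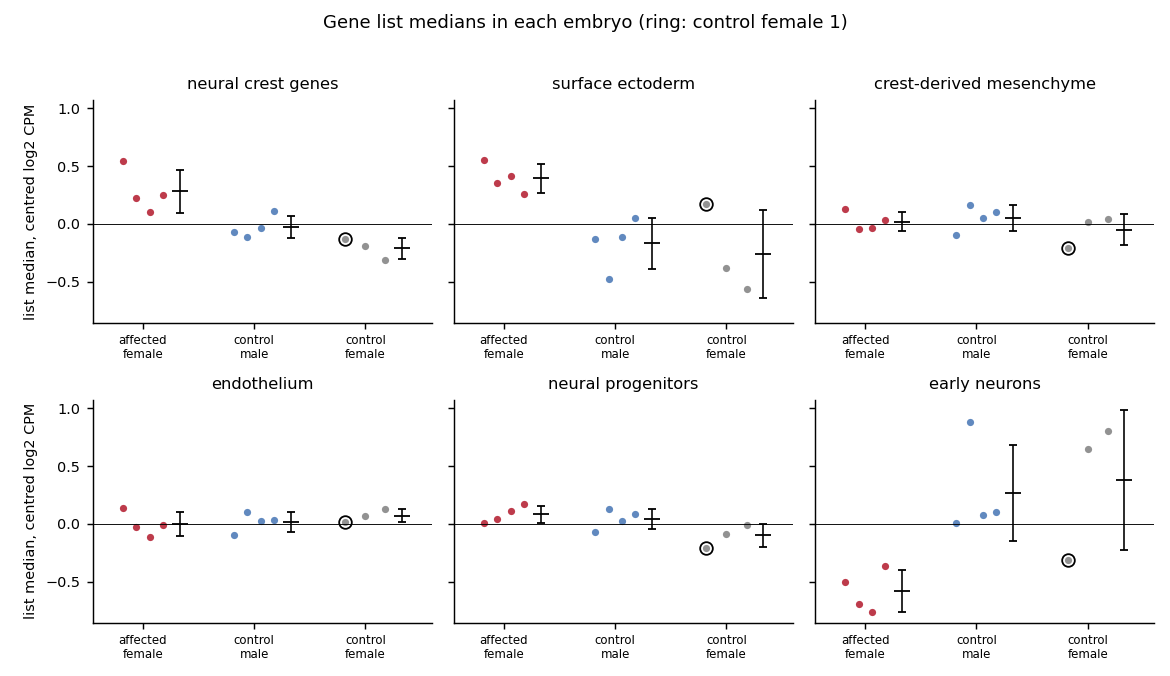
Median log2 CPM after subtracting each gene's mean over the 11 libraries, for the 10 neural crest genes and 5 marker lists, 1 point per embryo, for affected females, control males and control females, with the group mean and SD beside the points and a ring around control female 1. Surface ectoderm medians are 0.26 to 0.55 in affected females and early neuron medians -0.77 to -0.36, while control female 1 lies nearer to the affected females than control females 2 and 3 do in both panels.

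The genes whose level followed Sox10 most closely over the 11 libraries were found by Pearson correlation of log2 CPM among tested genes whose average log2 CPM was 2 or more. They were Cmtm6 (r = 0.963), Gm7614 (0.955), Gprc5c (0.944), Phactr1 (0.943) and Cited2 (0.939). The groups differ in Sox10, so these values rest in large part on the difference between groups, and they describe these libraries only.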

How the data were processed

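Polyadenylated RNA of 11 embryos was sequenced from TruSeq libraries on an Illumina HiSeq instrument, per the labels' protocols. The authors deposited raw counts per Entrez gene in 1 file per library, made with featureCounts on mm10 per the submitters' processing notes; the aligner, its version, the strand setting and the annotation were not given in the sources used here. Without the strand setting, reads of Tfap2a and Ets1 cannot be told apart from those of antisense genes that overlap them. Groups and replicate numbers came from the sample titles. The labels give no batch or litter, and they do not say whether embryos of a group shared a litter, so p-values measure the spread between these embryos. The chi-square per degree of freedom between libraries of a group was 2.73 to 31.6, so none was counted as a duplicate.

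Counts were fitted with edgeR 4.0.16 in R 4.3.3: filterByExpr (14542 genes), TMM scaling, 1 quasi-likelihood fit of all 11 libraries with group as the only factor, and Benjamini-Hochberg adjustment over all tested genes at 0.05. The SE is the size of the log2 fold change divided by the square root of F. Log2 CPM used a prior count of 2. Symbols and promoters came from RefSeq tables for GRCm38.p6, in which 25275 of 27179 identifiers had a symbol. The members and lists were chosen with earlier results of these data known. Named genes were the 10 members, from each list and comparison up to 3 called genes of smallest adjusted p, and the 5 genes most like Sox10. Ccng1, Xist and Ddx3y served as label checks. Sox2, Otx2, Pax6, Pou4f1 and Neurod1 were named outside this rule. Edn3, Edn2, Ece1, Nrg1, Erbb2, Tyr, Foxs1, Gfra1 and the genes named in captions alone were chosen after their values were seen. Alternatives were RLE scaling, TMM factors from autosomal genes, a robust fit, a CPM filter and no filter on low counts, DESeq2 1.42.0, limma 3.58.1 (voom, weighted samples), a replicate block, a fit of the 2 groups alone, and each library left out; omission of control female 1 with control male 4 was added after the data were seen. The fit was tested on simulated counts. A limit from a count of 0 covers counting error only.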

Additional observations from a re-analysis of the deposited data

Results flagged for a closer look

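In 48 sets of 4 values (the members' CPM and the list medians in affected females and in control males), a value was marked where its gap to the nearest other was above Dixon's critical share of the range. Chance marks about 1 in 20 such sets, or 2.4 here, and 2 were marked. Sox10 in affected female 1, at 33.499 CPM, was the highest of its group, with a gap of 0.844 of the range; the other affected females had 24.5, 24.6 and 23.0 CPM. The median of the early neuron list in control male 2, at 0.884148 on the centred log2 scale, was the highest of the control males, with a gap of 0.893 of the range.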

How the results depend on the processing

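For the 10 neural crest genes, 520 values under alternative settings were compared with the reported ones: 465 kept direction and side of the threshold, 20 were newly called, 26 lost their call and 9 changed sign. Of 936 alternative values for genes named from the lists, 850 stayed called and 0 changed sign. These genes were picked for their small adjusted p in these same data, which favours staying called. The numbers therefore do not measure how steady the lists are. Without 1 library, 1663 to 4579 genes were called in affected against control females, 361 to 5140 against control males and 18 to 35 between control males and control females; the neural crest genes called were 3 to 6, 1 to 7 and 0. With voom these numbers were 7639, 6397 and 1569 genes, with 6 crest genes against control males and 2 between the control groups. DESeq2 called 43 genes between the control groups and 5 crest genes against control males. The fit of 2 groups alone called 19 genes between the control groups and also 5 crest genes against control males. Without control female 1 and control male 4, 6014 genes and 7 crest genes were called against control males. The cause was not tested.

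The replicate numbers showed no pairing of embryos by correlation: deviations of same-numbered libraries correlated by -0.14 to 0.18, and 0 of 6, 1 of 8 and 1 of 6 libraries correlated best with their own number. With so few embryos a group, these values cannot tell whether embryos shared a litter or batch. With the replicate number as a block, 2875, 3418 and 21 genes were called, and 5, 6 and 0 crest genes; Foxd3 and Sox9 were not called against control females (adjusted p = 0.0915 and 0.0609, edgeR).

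The 9 sign changes were all of genes with no call. Against control males, Tfap2b stood at 0.0115 with voom and between -0.145 and 0.0124 with 1 library left out (positive without affected female 2), and Snai2 at -0.06, -0.00235 and -0.0704 without affected female 1, affected female 2 and control male 3. Between control males and control females, voom gave -0.0147 for Sox9 and -0.11 for Snai2, Sox9 stood at -0.0018 without control male 4, and Tfap2a between -0.0380 without control female 3 and 0.423 without control female 1. Depth limits Foxd3 most, with 7 to 35 counts per library.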
